A study of Mus musculus with 6 samples.

Results

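The Rhox genes are a cluster of reproductive homeobox genes on the mouse X chromosome, and 6 of them, Rhox5, Rhox6, Rhox8, Rhox9, Rhox10 and Rhox13, were followed in fetal gonads that lack normal Sox9. Members were taken as the genes with a probe set annotated to that gene alone, and 5 of the 6 had one, each a single probe set, among 19937 genes measured. Rhox5 was not analysed here. RNA came from gonads dissected at E13.5 (embryonic day) without the mesonephros, pooled, and hybridised on 6 arrays. The mutant gonads had the genotype Sox9flox/flox; Sf1:creTr/+, with 12 gonads in each of 3 pools on arrays numbered 3, 4 and 6. The wild-type gonads were pooled by 6 on 3 arrays numbered 1, 2 and 5, and both groups were of a mixed background from C57BL6/J crossed with 129. The Cre of this cross is driven by regulatory sequence of Sf1 (Nr5a1), which is active in somatic cells of the gonad, and no group carried the Cre or the floxed alleles alone. The labels name no embryo sex and no litter, so p-values measure the spread between these pools, which may be partly technical.

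RHOX proteins are homeodomain transcription factors of gonads, epididymis and placenta, and the cluster is known for its control by DNA methylation. In the mouse, Rhox5 and Rhox8 are known from Sertoli cells, the supporting cells of the testis, and from granulosa cells, those of the ovary. Rhox6 and Rhox9, once called Psx1 and Psx2, are close copies of each other known from placenta and from fetal germ cells. Rhox10 acts in male germ cells that found the spermatogonial stem cells, and Rhox13 is made in premeiotic germ cells of both sexes and is regulated by NANOS2 in the male. SOX9 is the transcription factor that drives Sertoli cell development, so the comparison sets a supporting cell member beside germ cell members when that factor is removed.

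The 250 bases before the RefSeq start of Rhox13 and Rhox10 (GRCm38.p6, plus strand of the X chromosome) are shown because these are the germ cell members whose promoters the RefSeq table used here holds. They span chrX:38120590-38120839 for Rhox13 and chrX:38066225-38066474 for Rhox10. Capitals mark every match, on either strand, to the SOX core AACAAT, the GATA motif AGATAA, the androgen receptor hexamer AGAACA or the nuclear receptor hexamer AGGTCA.
Rhox13: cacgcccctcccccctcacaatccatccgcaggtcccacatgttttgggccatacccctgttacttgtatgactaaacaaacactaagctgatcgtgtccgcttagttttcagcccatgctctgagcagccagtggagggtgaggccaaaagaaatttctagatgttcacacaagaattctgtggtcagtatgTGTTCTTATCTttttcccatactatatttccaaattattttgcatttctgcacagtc
Rhox10: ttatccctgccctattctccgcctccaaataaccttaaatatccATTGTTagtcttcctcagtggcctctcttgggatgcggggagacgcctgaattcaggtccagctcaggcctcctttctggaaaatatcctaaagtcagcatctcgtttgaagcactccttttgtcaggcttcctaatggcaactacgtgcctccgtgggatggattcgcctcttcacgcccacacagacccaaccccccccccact
The capitals of Rhox13 are an androgen receptor hexamer and a GATA motif, both on the minus strand and sharing 1 base, and those of Rhox10 are 1 SOX core on the minus strand. Among 32851 promoters of the same length, 9.4% held the SOX core, 10% the GATA motif, 16.1% the androgen receptor hexamer and 14.0% the nuclear receptor hexamer. Rhox10 had 8 CpG sites in its window and Rhox13 had 4, against a median of 6 over all promoters (quartiles 2 and 16). These are matches of letters, not bound sites.

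Of the 5 measured members, all but Rhox8 were germ cell members. In the mutant 3 of the 5 rose, all of them germ cell members, 0 fell, and 2 did not pass an adjusted p of 0.05. Among all 19937 genes, 6.94% passed that threshold, 2.64% higher and 4.3% lower in the mutant. The test was that of limma, with Benjamini-Hochberg adjustment over 28187 probe sets. The mutant values of 3 members lay above every wild-type value and those of 1 member below, against 12.1% and 16.6% of all genes (28.7% in either direction). That 1 was Rhox10, whose values were at the level of background signal on every array. In gonads as a whole, fewer cells of a type and less RNA per cell cannot be told apart.

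Rhox9 had the largest increase of the 5 members. It measured 9.03, 9.14 and 9.96 log2 on mutant arrays 3, 4 and 6, against 7.56, 7.44 and 7.71 log2 on wild-type arrays 1, 2 and 5. The groups were 1.32 log2 apart at their nearest values, and mutant 6 stood above the other mutant arrays. The means were 9.38 ± 0.51 log2 in the mutant and 7.57 ± 0.13 log2 in wild type (SD, n = 3 each). The difference was 1.81 ± 0.22 log2 (SE; limma adjusted p = 0.00228), or 3.50-fold (95% interval 2.46 to 4.97), and it ranked 44 among the increases of all genes.

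Rhox6, the copy of Rhox9, rose by less. It measured 9.45, 9.42 and 9.85 log2 on mutants 3, 4 and 6, against 8.66, 8.49 and 8.72 log2 on wild type 1, 2 and 5. Again no mutant value came near a wild-type value, and mutant 6 was the highest array. The difference was 0.95 ± 0.14 log2 (SE; limma adjusted p = 0.00590), or 1.93-fold (95% interval 1.54 to 2.42), rank 187 among the increases. Rhox6 and Rhox9 followed each other closely over the arrays (Pearson r = 0.996 over 6 arrays), a value in which the gap between the groups takes a large part. Whether the 2 probe sets read each other's transcript was not tested, so the split of the increase between the copies is uncertain.

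Rhox13 rose at a lower signal. It measured 7.17, 6.70 and 6.79 log2 on mutants 3, 4 and 6, against 6.18, 6.20 and 5.89 log2 on wild type 1, 2 and 5. All 3 mutant arrays lay just above the background mark of 6.67 log2, and all 3 wild-type arrays below it. That mark is the 95th percentile of the mean signal of 1204 olfactory and vomeronasal receptor probe sets. The difference was 0.80 ± 0.15 log2 (SE; limma adjusted p = 0.0180), or 1.74-fold (95% interval 1.37 to 2.21), and near background such folds are understated. Set against the mark in place of the wild-type values, the mutant mean was at least 1.16-fold higher. Its call was lost without wild type 1 (adjusted p = 0.0617), without wild type 5 (0.0637), without mutant 3 (0.0557) or with arrays 1 to 4 alone (0.0566). Unlike Rhox6 and Rhox9, it was highest on mutant 3.

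Rhox10 lay below the background mark on every array. It measured 4.44, 4.24 and 4.19 log2 on mutants 3, 4 and 6, against 4.93, 4.76 and 4.46 log2 on wild type 1, 2 and 5. The groups did not overlap, but mutant 3 and wild type 5 were only 0.016 log2 apart. The difference of -0.43 ± 0.15 log2 did not pass (SE; limma adjusted p = 0.141). At this signal the array does not measure how much Rhox10 RNA either group held.

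Rhox8, the supporting cell member, did not pass and had overlapping groups. It measured 7.55, 7.75 and 7.50 log2 on mutants 3, 4 and 6, against 7.65, 7.71 and 7.77 log2 on wild type 1, 2 and 5, above the background mark on every array. The means were 7.60 ± 0.13 log2 in the mutant and 7.71 ± 0.06 log2 in wild type (SD, n = 3 each). The difference was -0.11 ± 0.12 log2 (SE; limma adjusted p = 0.689), with a 95% interval of -0.37 to 0.15 log2, which holds ratios of mutant over wild type from 0.775 to 1.11. Mutant 4, the mutant array on which Amh stayed highest, was also the highest mutant array for Rhox8. The mutant values spanned only 0.25 log2 for Rhox8, against 3.02 log2 for Amh. With 3 mutant arrays this order is a description, and a link between the 2 genes was not tested.

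**Figure D1:**
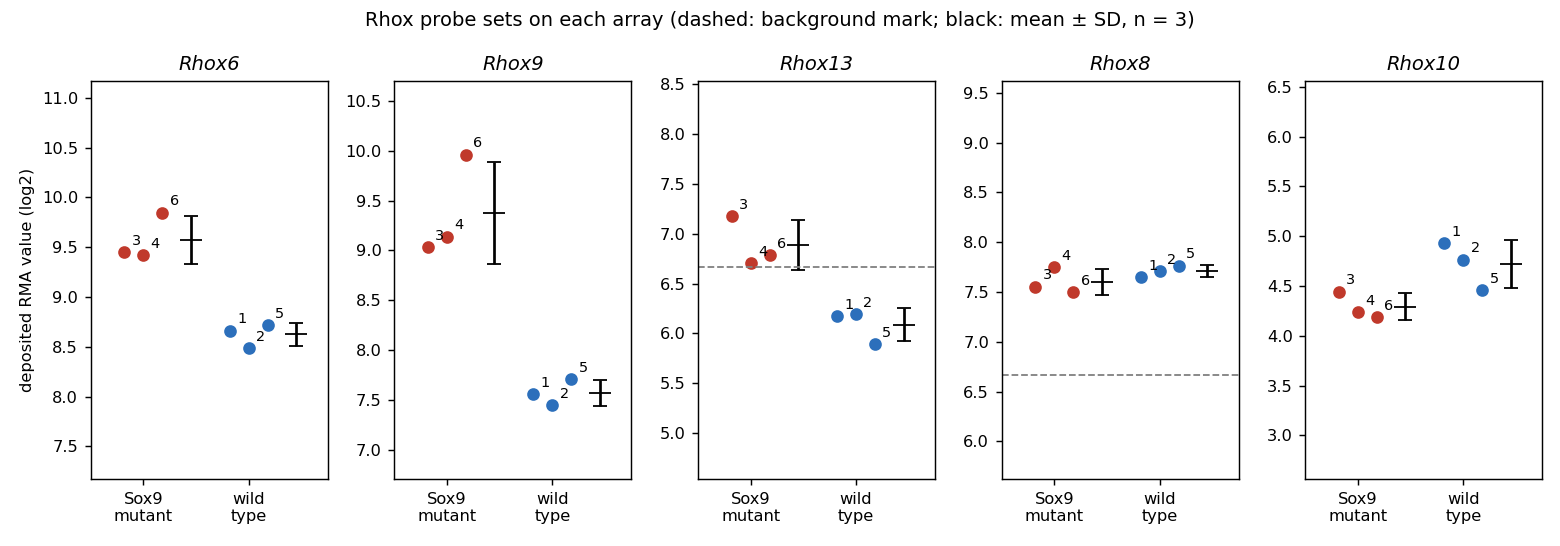
Deposited log2 value (y axis, the same span of log2 units in each panel but different levels) of 5 Rhox probe sets on 3 Sox9 mutant arrays (left, red) and 3 wild-type arrays (right, blue), each point labelled with its array number; black bars are means ± SD and the dashed line is the background mark of 6.67 log2. The groups are apart for Rhox6, Rhox9 and Rhox13, overlap for Rhox8 and nearly touch for Rhox10. The mark falls within the span of the Rhox8 and Rhox13 panels alone. It lies outside the span shown for Rhox6, Rhox9 and Rhox10, and all values of Rhox10 are below the mark.

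The levels of the members were set beside those of the supporting cells themselves. Sox9 measured 7.63 ± 0.13 log2 in the mutant and 8.95 ± 0.22 log2 in wild type (SD, n = 3 each; limma adjusted p = 0.00124). The Sertoli cell list had 20 of 25 genes lower and 5 that missed the threshold, with a median difference of -1.43 log2 against 0.004 log2 over all genes. Among them Amh, which encodes anti-Müllerian hormone, fell by 4.33 log2, Cst9, a cystatin family gene, fell by 4.14 log2, and Hsd17b3, which makes testosterone, fell by 3.51 log2. Of the mutant arrays these 3 genes were above the background mark on mutant 4 alone. With eBayes with trend and robust the calls of Amh and Hsd17b3 were lost (limma adjusted p = 0.0802 and 0.0518). The difference of 22 of the 25 lay below the lower bound of the Rhox8 interval. Those of Cited1 (-0.31 log2), Dmrt1 (-0.23) and Gata4 (0.13), named after their values were seen, lay inside it. All 14 measured pregranulosa cell genes rose (median 1.26 log2), among them Fst, which binds activin, by 3.62 log2 and Bmp2, a BMP ligand, by 2.11 log2, and each lay above the upper bound for Rhox8. Over the alternatives 10 to 14 of them passed as higher, and 18 to 22 of the Sertoli list as lower. Irx5, named after its values were seen, was below the background mark on all wild-type arrays and lost its call in 7 of 13 alternatives. On these arrays the interval of Rhox8 left out the differences of most Sertoli and of all pregranulosa markers. Both lists were chosen with earlier results of these data known.

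The difference between the supporting cell member and each germ cell member was tested as the value of Rhox8 minus that of the other gene on each array. With Rhox9 this quantity averaged -1.78 ± 0.59 log2 in the mutant and 0.14 ± 0.11 log2 in wild type (SD, n = 3 each), a difference of -1.92 log2. With Rhox6 the difference was -1.06 log2, with Rhox13 it was -0.91 log2 and with Rhox10 it was 0.32 log2. For Rhox9, Rhox6 and Rhox13 the groups did not overlap and the exact permutation test gave p = 0.1 (two-sided), the smallest p that 3 arrays against 3 allow, and adjusted p = 0.133 over the 4 pairs. With Rhox10, whose values are background signal, the groups overlapped (exact permutation p = 0.2, adjusted p = 0.2). This design cannot take such a test past 0.05.

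Other Rhox genes of the cluster did not pass. Rhox1 was above the background mark on all arrays, with 7.88 ± 0.26 log2 in the mutant and 7.59 ± 0.30 log2 in wild type (SD, n = 3 each; limma adjusted p = 0.443). Rhox11 averaged 5.59 and Rhox12 5.40 log2 in the mutant, against 5.24 and 5.42 log2 in wild type, all below the mark (limma adjusted p = 0.193 and 0.978). In all, 3 of 8 measured Rhox genes rose, and the other Rhox genes of the cluster, including the repeated copies Rhox2, Rhox3 and Rhox4, were not analysed here.

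Genes beside the cluster were counted in their RefSeq order. Of the 10 nearest measured genes on each side 0 of 20 passed, with a median difference of -0.03 log2 and a range of -0.54 to 0.35 log2. At an unadjusted p under 0.05, limma had 5 of the 20. With arrays 5 and 6 as a batch, a grouping by number that no label gives, 1 of them passed, 6030498E09Rik, which fell. The genes next to the cluster were Gm9 on one side (0.08 log2) and Zbtb33, which encodes the methyl-CpG-binding protein Kaiso, on the other (0.07 log2). Inside the cluster Btg1b (-0.01 log2) and Btg1c (0.08 log2) did not pass either. Among all 742 measured X-linked genes 37 rose and 37 fell, 4.99% in each direction. Within this stretch the genes that passed were Rhox6, Rhox9 and Rhox13, with Rhox8 lying between Rhox6 and Rhox9.

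**Figure D2:**
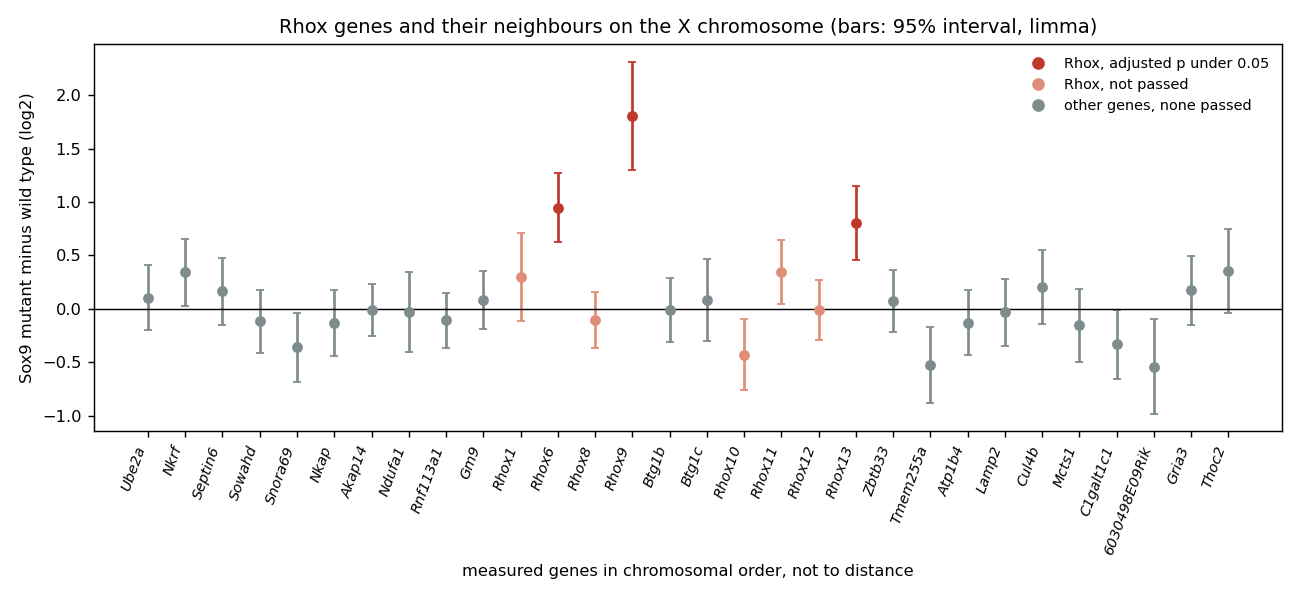
Difference of Sox9 mutant minus wild type (y axis, log2; points with 95% limma intervals) for 30 measured genes in chromosomal order, with 10 genes on each side of the Rhox cluster; dark red points passed an adjusted p of 0.05. The 3 Rhox genes that passed reach 0.80 to 1.81 log2, while the 20 flanking genes lie between -0.54 and 0.35 log2.

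Germ cell genes give the setting for the germ cell members. Ddx4 and Dazl encode RNA regulators present in germ cells of both sexes, and were picked with their values known. They averaged 11.09 ± 0.03 and 11.66 ± 0.03 log2 in the mutant, against 10.91 ± 0.04 and 11.35 ± 0.15 log2 in wild type (SD, n = 3 each). Neither passed (limma adjusted p = 0.409 and 0.183). For both, every mutant value lay above every wild-type value, by 0.105 and 0.136 log2 at the nearest, as for 12.1% of all genes. Both differences lay above the median of their list. The general germ cell list had 5 of 15 genes lower and 10 that missed the threshold (median -0.19 log2). The falls were led by Dppa3 (-1.55 log2), Utf1 (-1.39) and Dppa4 (-1.28), genes of undifferentiated germ cells. The calls of Dppa3 and Utf1 were each lost in 5 of 14 alternatives, among them leaving out any 1 wild-type array (limma adjusted p up to 0.0815 and 0.110), and that of Dppa4 in none. Rhox6, Rhox9 and Rhox13 went the other way from these falling genes, but not from the whole list. Mael (0.69 log2), Tfap2c (0.66) and Kit (0.51), picked with their values known, were higher in the mutant without passing. Their limma adjusted p was 0.316, 0.134 and 0.116, and Tfap2c and Kit each passed in 1 of 14 alternatives. In the male germ cell list 5 of 12 genes fell and 7 missed the threshold (median -0.58 log2). The 5 were Lefty2, Lefty1, Tdrd5, Nodal and Tdgf1. Lefty2, a Nodal inhibitor, had the largest fall (-2.37 log2, above the background mark on 1 of 3 mutant arrays, call lost in 5 of 14 alternatives, limma adjusted p up to 0.0767). Of the 7, Mov10l1 (0.69 log2) and Tdrd9 (0.02), named after their values were seen, were higher in the mutant without passing. Their limma adjusted p was 0.120 and 0.974, and Mov10l1 passed as higher in 1 of 14 alternatives. Nanos2, whose product regulates Rhox13 in the male, was among those 7, and what this had to do with Rhox13 RNA was not tested. Nanos2 measured 6.30, 6.81 and 5.82 log2 on mutants 3, 4 and 6, against 7.78, 8.03 and 6.83 log2 on wild type 1, 2 and 5 (difference -1.24 log2, limma adjusted p = 0.0590). It passed in 7 of 14 alternatives, among them a common median and array weights.

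Of 19 genes of meiotic entry and prophase 8 rose and 11 did not pass (median 1.25 log2). They included Meioc, which prolongs the meiotic program, with 9.46 ± 0.99 log2 in the mutant and 5.36 ± 0.65 log2 in wild type, and Stra8, needed for meiotic entry, with 8.47 ± 0.57 log2 in the mutant and 5.07 ± 0.39 log2 in wild type (SD, n = 3 each). Both lay below the background mark on all wild-type arrays, so they were at least 6.94-fold and 3.47-fold higher in the mutant, taken against the mark (limma adjusted p = 0.00147 and 0.000369). In all, 7 of the 19 were below the mark on every wild-type array and not on every mutant array, and with these at such bounds, or at 0 where the mutant mean was below the mark too, the list's median was 0.95 log2. Over the 14 alternatives the meiotic count of 8 ran from 5 to 12. It was 5 without wild type 1 or with eBayes with trend and robust, and 12 without mutant 6. The count of 5 lower general germ cell genes ran from 1 to 6. It was 1 without wild type 1 or 2 and dropped to 2 without wild type 5 or with all rows of the table. With eBayes with trend and robust, or without mutant 3 or 4, it was 3. The count of 5 lower male germ cell genes also ran from 1 to 6. It was 1 without wild type 1 and 3 without mutant 3 or with eBayes with trend and robust.

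The mutant arrays were not ordered alike for the Rhox genes and for the meiotic genes. On mutants 3, 4 and 6 the meiotic list stood at medians of 2.27, 1.27 and 0.47 log2 above the wild-type mean. Rhox9 stood at 1.46, 1.57 and 2.39 log2 above it on the same arrays, and Rhox6 at 0.83, 0.79 and 1.22 log2. The array with the smallest meiotic increase thus had the largest increase of Rhox6 and Rhox9. Rhox13, at 1.09, 0.61 and 0.70 log2, was largest on mutant 3, as the meiotic genes were. The pregranulosa list stood at 1.32, 1.29 and 1.32 log2, nearly level over the mutant arrays, and the Sertoli list at -1.61, -1.16 and -1.70 log2. With 3 mutant arrays these orders are a description. Mutant 6 and wild type 5 were also set apart from the 4 other arrays on the second principal component (23.3% of the variance), and what this had to do with the values of mutant 6 was not tested. Without mutant 6 Rhox9 was 1.51 log2 and Rhox6 0.81 log2 higher in the mutant, and both still passed (limma adjusted p = 0.000712 and 0.00946).

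**Figure D3:**
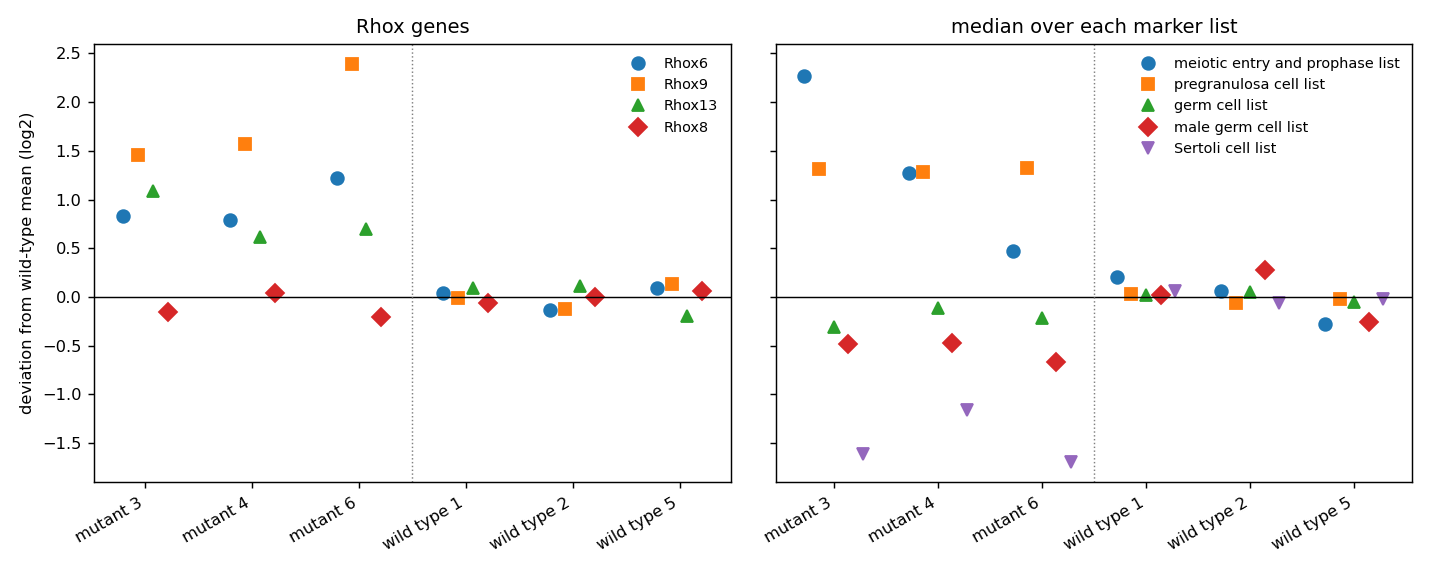
Deviation of each array from the wild-type mean (y axis, log2) for 4 Rhox genes (left panel) and for the median of 5 marker lists (right panel), with the 3 mutant arrays left of the dotted line and the 3 wild-type arrays right of it. Rhox6 and Rhox9 are highest on mutant 6, where the meiotic list is lowest among the mutant arrays, and Rhox8 stays within 0.21 log2 of the wild-type mean.

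Regulators of the cluster and targets of its products were examined as lists. Among 13 measured regulators, which include the DNA methyltransferases, TET enzymes and GATA factors, 1 rose and 12 did not pass (median -0.04 log2). Over 14 alternatives 0 or 1 rose and 0 to 2 fell. Those that fell were Tet1 and Nanos2, and Nanos2 is the same gene already counted in the male germ cell list. The riser was Hells, a chromatin remodeller needed for DNA methylation, at 11.74 ± 0.09 log2 in the mutant and 11.23 ± 0.03 log2 in wild type (SD, n = 3 each; limma adjusted p = 0.0272). Its call was lost without any 1 array, with all rows of the table and with arrays 1 to 4 alone (adjusted p up to 0.108). Tet1, which oxidises methylated cytosine, was singled out after its values were seen, with 9.18 ± 0.28 log2 in the mutant and 9.73 ± 0.06 log2 in wild type (SD, n = 3 each; limma adjusted p = 0.0670), and it passed as lower in 5 of 14 alternatives (limma adjusted p 0.0371 to 0.166 over the 14). Of 5 genes known as RHOX5 targets in Sertoli cells, 4 did not pass. Of those 4, Adipoq and Ins2, named after their values were seen, lay below the background mark on all 6 arrays, so their change was not measured. Ppargc1a, a transcriptional coactivator of mitochondrial genes, passed as lower, with 6.04 log2 in the mutant and 6.69 log2 in wild type (limma adjusted p = 0.0437). Ppargc1a lay below the background mark on all mutant arrays and its call was lost in 7 of 13 alternatives (adjusted p up to 0.173), among them leaving out any 1 array but wild type 2. Unc5c, a netrin receptor and the best known of these targets, was chosen after its values were seen and averaged 8.22 ± 0.20 log2 in the mutant and 8.62 ± 0.17 log2 in wild type (SD, n = 3 each; limma adjusted p = 0.162).

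Markers of other tissues were measured because Rhox6 and Rhox9 are also placental genes. All 9 measured trophoblast genes had means below the background mark in both groups, and 8 were below it on every array. The exception was Plac1, a placental gene named after its values were seen, at 6.08, 5.93 and 6.84 log2 on mutants 3, 4 and 6, against 6.59, 6.08 and 6.72 log2 on wild type 1, 2 and 5. It crossed the mark on mutant 6, where Rhox6 and Rhox9 were highest, and on wild type 5, and the groups overlapped. Of the 9, 0 passed (0 at an unadjusted p under 0.05 in limma), with list means of 4.72 to 4.80 log2 on mutant arrays and 4.70 to 4.93 log2 on wild-type arrays. Of 7 mesonephric and duct genes, Gata3, below the mark on all wild-type arrays, rose (at least 1.93-fold, taken against the mark; limma adjusted p = 0.000662), Lhx1 fell by 0.96 log2 (call lost without wild type 1, wild type 2 or mutant 3, limma adjusted p up to 0.0834) and 5 did not pass, with list means of 7.21 to 7.34 log2 on mutant arrays and 7.06 to 7.21 log2 on wild-type arrays. The mean of the liver list was high on wild type 5 alone, at 9.07 log2 against 6.46 and 6.68 log2 on wild type 1 and 2 and 6.54 to 6.64 log2 on the mutant arrays. Fga, named after its values were seen, was not raised there (6.37 log2, against 6.10 and 6.61 log2 on wild type 1 and 2). Of the 9 liver genes 0 passed (1 at an unadjusted p under 0.05 in limma). Without wild type 5 Rhox9 was 1.88 log2 and Rhox6 0.996 log2 higher in the mutant (limma adjusted p = 0.00872 and 0.0171). All 7 measured fetal Leydig cell genes fell (median -2.74 log2). The largest falls were those of Cyp11a1, which starts steroid synthesis (-4.70 log2, call lost with eBayes with trend and robust, limma adjusted p = 0.0969), and Cyp17a1, an enzyme of androgen synthesis (-4.29 log2). The call of Cyp17a1 was lost in 7 of 14 alternatives, among them leaving out mutant 3 or any 1 wild-type array (limma adjusted p up to 0.150), and that of Star, which imports cholesterol into mitochondria (-3.34 log2), in none.

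The genes whose values ran most like each member over the 6 arrays were named by Pearson correlation among 13017 other genes above the background mark, or 13018 for Rhox10 and Rhox13, which lie outside that set. For Rhox9 they were Cdkn1c (r = 0.998), Pld1 (0.997) and Aldh1a2 (0.996), with differences of 0.84, 0.97 and 0.52 log2. For Rhox6 they were Rnf128 (0.997), Sema3a (0.997) and Sh3bgrl2 (0.997), with 1.36, 1.28 and 0.31 log2. For Rhox13 they were Pacc1 (0.996), Neo1 (0.994) and Spata5 (0.993). For Rhox8 they were Mapre3 (0.981), Morn3 (0.974) and Asic1 (0.962), whose differences of -0.17, -0.08 and -0.09 log2 did not pass. For Rhox10 they were Slc30a7 (0.993), Mafg (0.989) and Retreg3 (0.989). With 6 arrays and so many genes, values this high are a ranking only.

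Within the arrays numbered 1 to 4, Rhox9 was 1.58 log2 and Rhox6 0.86 log2 higher in the mutant (limma adjusted p = 0.00203 and 0.0154). Between mutant 6 and wild type 5 the differences were 2.26 and 1.13 log2, with no test. Rhox13 differed by 0.75 and 0.89 log2 in these same 2 sets of arrays, and Rhox8 by -0.03 and -0.27 log2.

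**Figure D4:**
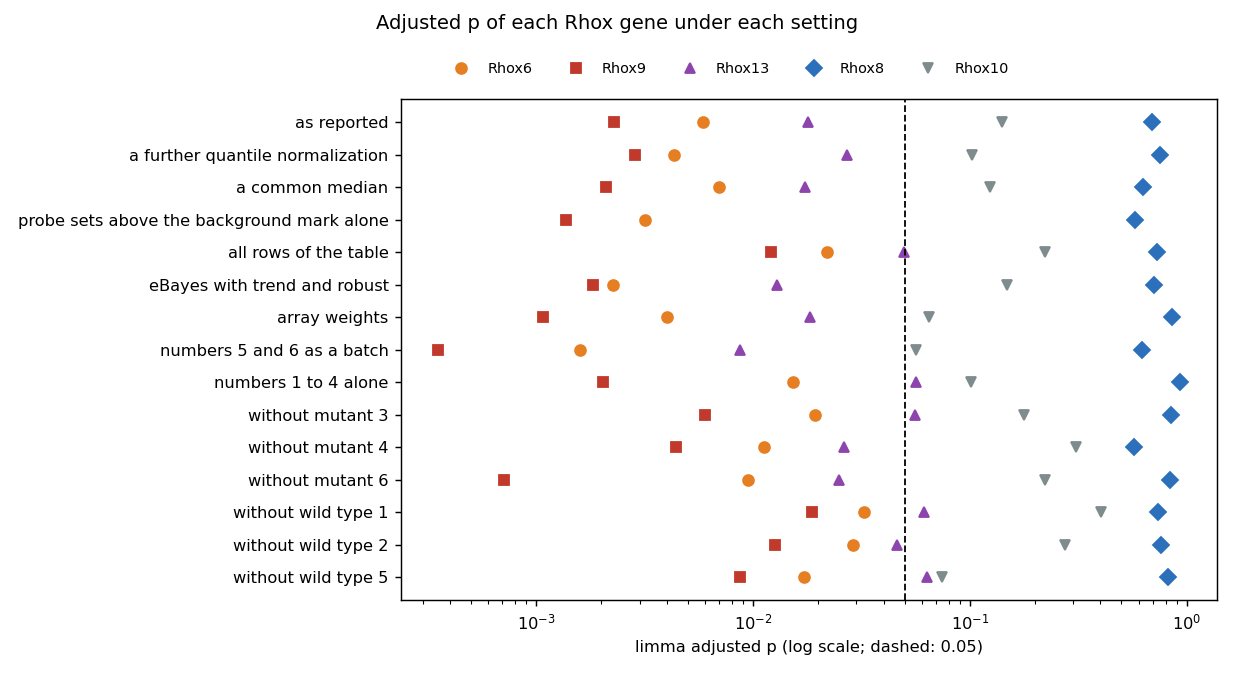
Adjusted p of limma (x axis, log scale, with the threshold of 0.05 dashed) for 5 Rhox genes under each of 15 settings (rows), the reported one at the top. Rhox9 and Rhox6 stay left of the threshold in each setting, Rhox8 and Rhox10 right of it, and Rhox13 crosses it in 4; Rhox10 and Rhox13 have no value among probe sets above the background mark.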

How the data were processed

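The members and gene lists were chosen with earlier results of these data known. Per the labels, 300 ng of total RNA from each pool was labelled with biotin for the array, and the deposited log2 values come from RMA, per the submitters' processing notes. RMA corrects background, makes the arrays' distributions equal and combines probes into a probe set value; its version was not given in the sources used here. Values ran from 2.45 to 14.49 log2, array medians from 6.99 to 7.07, and the number of arrays limits the precision. Of 34760 rows, the 6573 with identifiers below the lowest annotated one were taken as controls and not tested. Of the 28187 probe sets tested, 21640 had 1 gene in the annotation table, 1321 had several, and 21553 of the single-gene ones matched the GRCm38.p6 RefSeq table. A gene was represented by its brightest probe set. Mutant and wild type were fitted with limma 3.58.1 under R 4.3.3 (lmFit, eBayes, two-sided, adjusted p by Benjamini-Hochberg), tested on simulated data, and single differences with exact permutation tests in SciPy 1.17.1. Named genes were the members, other Rhox probe sets, Sox9, up to 4 called genes with the largest change of each list, called neighbours and the 3 best correlated genes per member. Most others are marked. Nanos2, Tdgf1 and the uncalled genes next to and inside the cluster were named outside this rule and carry no mark. Promoters are from RefSeq, and 3 of the 6 member genes matched that table. Alternatives changed scaling, filter, variance model, weights, batch and arrays. Figures were drawn with matplotlib 3.10.9.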

Additional observations from a re-analysis of the deposited data

How the results depend on the processing

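Rhox9 and Rhox6 passed in all 14 alternatives run, with differences of 1.51 to 1.98 and 0.81 to 1.02 log2 and limma adjusted p of 0.000354 to 0.0187 and 0.00160 to 0.0326. Rhox8 (-0.18 to -0.03 log2, adjusted p 0.573 to 0.934) and Rhox10 (-0.56 to -0.32 log2, adjusted p 0.0567 to 0.401, 13 alternatives) passed in none. Rhox13 stayed higher in 13 alternatives but missed the threshold in 4, with arrays 1 to 4 alone (0.75 log2) and in 3 of the 6 fits that left out 1 array, whose differences ran from 0.66 to 0.89 log2; fewer samples entered each of these fits. Over all probe sets 1611 passed, 630 higher and 981 lower in the mutant, against 906 with all rows of the table, 2504 with arrays 5 and 6 as a batch, and 684 to 1564 with 1 array left out. With 1 array left out, the difference between Rhox8 and the germ cell members ran from -2.11 to -1.57 log2 for Rhox9, -1.21 to -0.87 for Rhox6, -1.07 to -0.74 for Rhox13 and 0.18 to 0.48 for Rhox10. A mean over several probe sets was not run, since each member had 1, and the 4 planned pairs with Rhox5 were not analysed here. No paired analysis was possible because the groups share no replicate number. The signal of Rhox10, and of Rhox13 in wild type, was not above background, which limits what can be said of their size.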
